A study of Mus musculus with 13 samples.

Results

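The chromatin of 7 genes of the Gdnf and Ret branching signal was followed in mouse kidney nuclei by single nucleus ATAC-seq (snATAC-seq), in which the Tn5 transposase cuts and tags accessible DNA. The genes were the ligand Gdnf, the receptor genes Ret and Gfra1, the targets Etv4, Etv5 and Spry1, and the transcription factor gene Gata3. Their peaks were those of the deposited peak list that overlapped the gene body or the 2000 bases upstream of it (mm10, GENCODE M21), a rule of position alone. It gave 106 of 300755 peaks and 7 of 18216 protein-coding gene windows, a window being the gene body with its upstream bases. Gfra1 held 51 of these peaks, Etv5 held 16, Ret and Gata3 12 each, Gdnf 8, Etv4 4 and Spry1 3. Of the 106, 83 lay in introns, 10 over exons, 8 over a transcript start and 5 upstream.

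Kidney branching rests on a signal between tissues. Mesenchyme around the ureteric bud, including the nephron progenitors of the cap, secretes GDNF, which binds the membrane-anchored co-receptor GFRA1 and activates the receptor tyrosine kinase RET on the tips of the bud, which branch into the collecting duct tree. In tip cells the ETS family transcription factors ETV4 and ETV5 act downstream of RET, SPRY1 is a feedback antagonist of receptor tyrosine kinase signalling, and GATA3 is a zinc finger transcription factor of the nephric duct and its derivatives. The principal and intercalated cells of the collecting duct descend from that bud.

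The nuclei came from 5 kidney samples, 2 at postnatal day 0 (P0, from mice the protocol describes as 1 day old), 1 at day 21 (P21) and 2 at day 56 (P56). P21 and P56 were grouped as adult, as in the study. No treatment or genotype is given in the labels, and strain is not given there for these mice. Nothing in the labels says that the samples came from separate animals, so the p-values measure the spread between these samples, which may be technical. The study's deposited annotation put 27652 of 28316 nuclei in the 13 clusters used here: nephron progenitors (NP), podocytes, proximal convoluted and straight tubule (PCT, PST), the loop of Henle (LOH), the distal convoluted and connecting tubule (DCT, CNT), collecting duct principal cells (PC) and intercalated cells (IC), endothelial and immune cells, and stroma 1 and stroma 2.

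Samples held 3361 to 7129 nuclei and 16980853 to 43794155 open calls, an open call being a peak with a read in a nucleus. The median nucleus had 6203 and 6737 open peaks in the P0 samples and 4153 (P21), 3371 and 6178 (P56) in the adult samples. A share of open nuclei therefore scales with depth, and shares are given beside those after each nucleus was thinned to 1000 open peaks where that bears on a result. Of 27834 barcode sequences, 477 occurred in more than 1 sample. No doublet caller was run here, and a doublet step for these nuclei is not given in the sources used here. Marker windows were open most often in the cluster they name for 19 of 20 markers at P0 and 18 of 20 in adult samples. At P0 the connecting tubule marker Trpv5 led in DCT (22.2% against 20.2%), and in adult samples Akr1c21, which marks both proximal segments and was counted here with PST, was level in PCT and PST (6.40% and 6.39%). The progenitor marker Cited1 was open in 19.9% of NP nuclei at P0 and in 3.01% of adult nuclei labelled NP, below adult PST at 7.64%. Adult samples held 52 to 90 nuclei labelled NP against 1005 to 1032 at P0, and their other progenitor marker, Uncx, was open in 7.76% against 25.7%. Adult NP values below describe nuclei that carry that label.

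The intervals on which most of the text turns are 5 intronic stretches of 300 bases, shown because 4 of them lie in peaks called for a single cell type at P0, and the other in a peak that was open in P0 principal cells and in no adult principal cell. They are given for the plus strand of mm10 in lower case, and capitals mark a match to a searched motif. At P0 the peak of Gdnf_6 (chr15:7817836-7818135) was open most often in stroma 1, that of Ret_6 (chr6:118187117-118187416) in stroma 2, Gfra1_27 (chr19:58369000-58369299) in podocytes, Gfra1_15 (chr19:58321115-58321414) in principal cells and then connecting tubule, and Gata3_3 (chr2:9867368-9867667) in endothelial cells. Calls for a single cell type at P0 numbered 5 of 46 tested member peaks, beside 15.6% of all peaks. None of the 5 held by the alternative test DESeq2 or without either P0 sample. In Ret_6 the capitals are an AP-2 site and in Gata3_3 a GATA site read on the minus strand. Both matches lie outside the central 300 bases of their peaks, and these stretches were shifted within the peak to show them.
Gdnf_6: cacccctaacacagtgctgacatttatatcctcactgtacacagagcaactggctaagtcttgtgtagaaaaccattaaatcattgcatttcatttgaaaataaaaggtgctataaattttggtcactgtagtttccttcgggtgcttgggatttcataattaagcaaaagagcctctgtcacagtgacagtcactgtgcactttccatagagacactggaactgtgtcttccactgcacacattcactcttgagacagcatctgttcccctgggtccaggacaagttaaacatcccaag
Ret_6: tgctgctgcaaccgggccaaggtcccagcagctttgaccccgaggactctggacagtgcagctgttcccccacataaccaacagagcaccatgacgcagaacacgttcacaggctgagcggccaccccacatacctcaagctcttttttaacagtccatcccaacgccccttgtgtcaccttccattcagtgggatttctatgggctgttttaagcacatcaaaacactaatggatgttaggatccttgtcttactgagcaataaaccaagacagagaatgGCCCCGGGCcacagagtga
Gfra1_27: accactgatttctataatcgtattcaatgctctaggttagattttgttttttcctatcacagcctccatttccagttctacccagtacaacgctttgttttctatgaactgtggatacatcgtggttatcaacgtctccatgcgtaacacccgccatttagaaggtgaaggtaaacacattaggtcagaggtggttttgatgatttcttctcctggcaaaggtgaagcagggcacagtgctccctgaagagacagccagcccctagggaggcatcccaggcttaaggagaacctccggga
Gfra1_15: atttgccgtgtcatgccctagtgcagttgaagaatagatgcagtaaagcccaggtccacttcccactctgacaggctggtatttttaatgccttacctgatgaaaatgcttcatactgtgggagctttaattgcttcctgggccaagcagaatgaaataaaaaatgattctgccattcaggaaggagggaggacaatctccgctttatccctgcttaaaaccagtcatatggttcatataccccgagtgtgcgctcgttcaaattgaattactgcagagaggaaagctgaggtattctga
Gata3_3: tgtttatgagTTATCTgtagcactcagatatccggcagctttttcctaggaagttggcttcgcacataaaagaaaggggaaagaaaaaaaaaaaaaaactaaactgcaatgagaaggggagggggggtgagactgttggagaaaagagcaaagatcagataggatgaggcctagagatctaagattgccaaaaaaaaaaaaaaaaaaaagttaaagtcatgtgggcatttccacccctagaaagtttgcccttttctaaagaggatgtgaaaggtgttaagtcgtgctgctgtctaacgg
Peaks of a gene are numbered along the chromosome. GC content of these stretches ran from 40% in Gata3_3 to 52.3% in Ret_6. Gdnf and Spry1 lie on the plus strand and the other genes on the minus strand, so that the highest peak number of Ret, Gfra1, Etv4, Etv5 and Gata3 lies nearest the upstream end.

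For each cell type, open calls were summed per sample and P0 was compared with adult by edgeR's quasi-likelihood test over all genes or peaks, with Benjamini-Hochberg adjustment. Differences are log2 of P0 over adult, relative to all open calls of that cell type, with the standard error (SE). Of 91 pairs of a gene window and a cell type, 83 could be tested, and 36 were higher and 3 lower at P0. Over all genes, 13.7% of tested pairs were higher and 10.5% lower. The median difference of the 83 pairs was 0.68, beside -0.014 for all genes. Gfra1 was higher in 9 of 12 cell types, Gdnf in 7 of 10, Etv4 in 7 of 12, Ret in 6 of 11 and Gata3 in 5 of 13, each with none lower. Spry1 had 1 higher and 1 lower of 12, and Etv5 1 higher and 2 lower of 13. NP, LOH, PC and stroma 2 each had 5 windows higher at P0, where 20.8%, 28.3%, 17.8% and 19.7% of all windows of that cell type were. Podocytes and IC had 1 each (5.88% and 1.38% of all windows), and DCT and immune cells none of the 5 and 2 tested (5.03% and 0.0241%). Without P0 replicate 1 the calls fell from 39 to 24, and without P0 replicate 2 to 26, each in the same direction. Of the 39, DESeq2 kept 31, losing Gdnf in CNT and endothelial cells, Ret in CNT and stroma 2, Gfra1 in IC, Etv4 in endothelial cells, Etv5 in CNT and Spry1 in stroma 2. Thinning kept 17 of the 27 that could be tested. The plot of window shares gives every sample, and the heat map gives the tested differences.

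**Figure D1:**
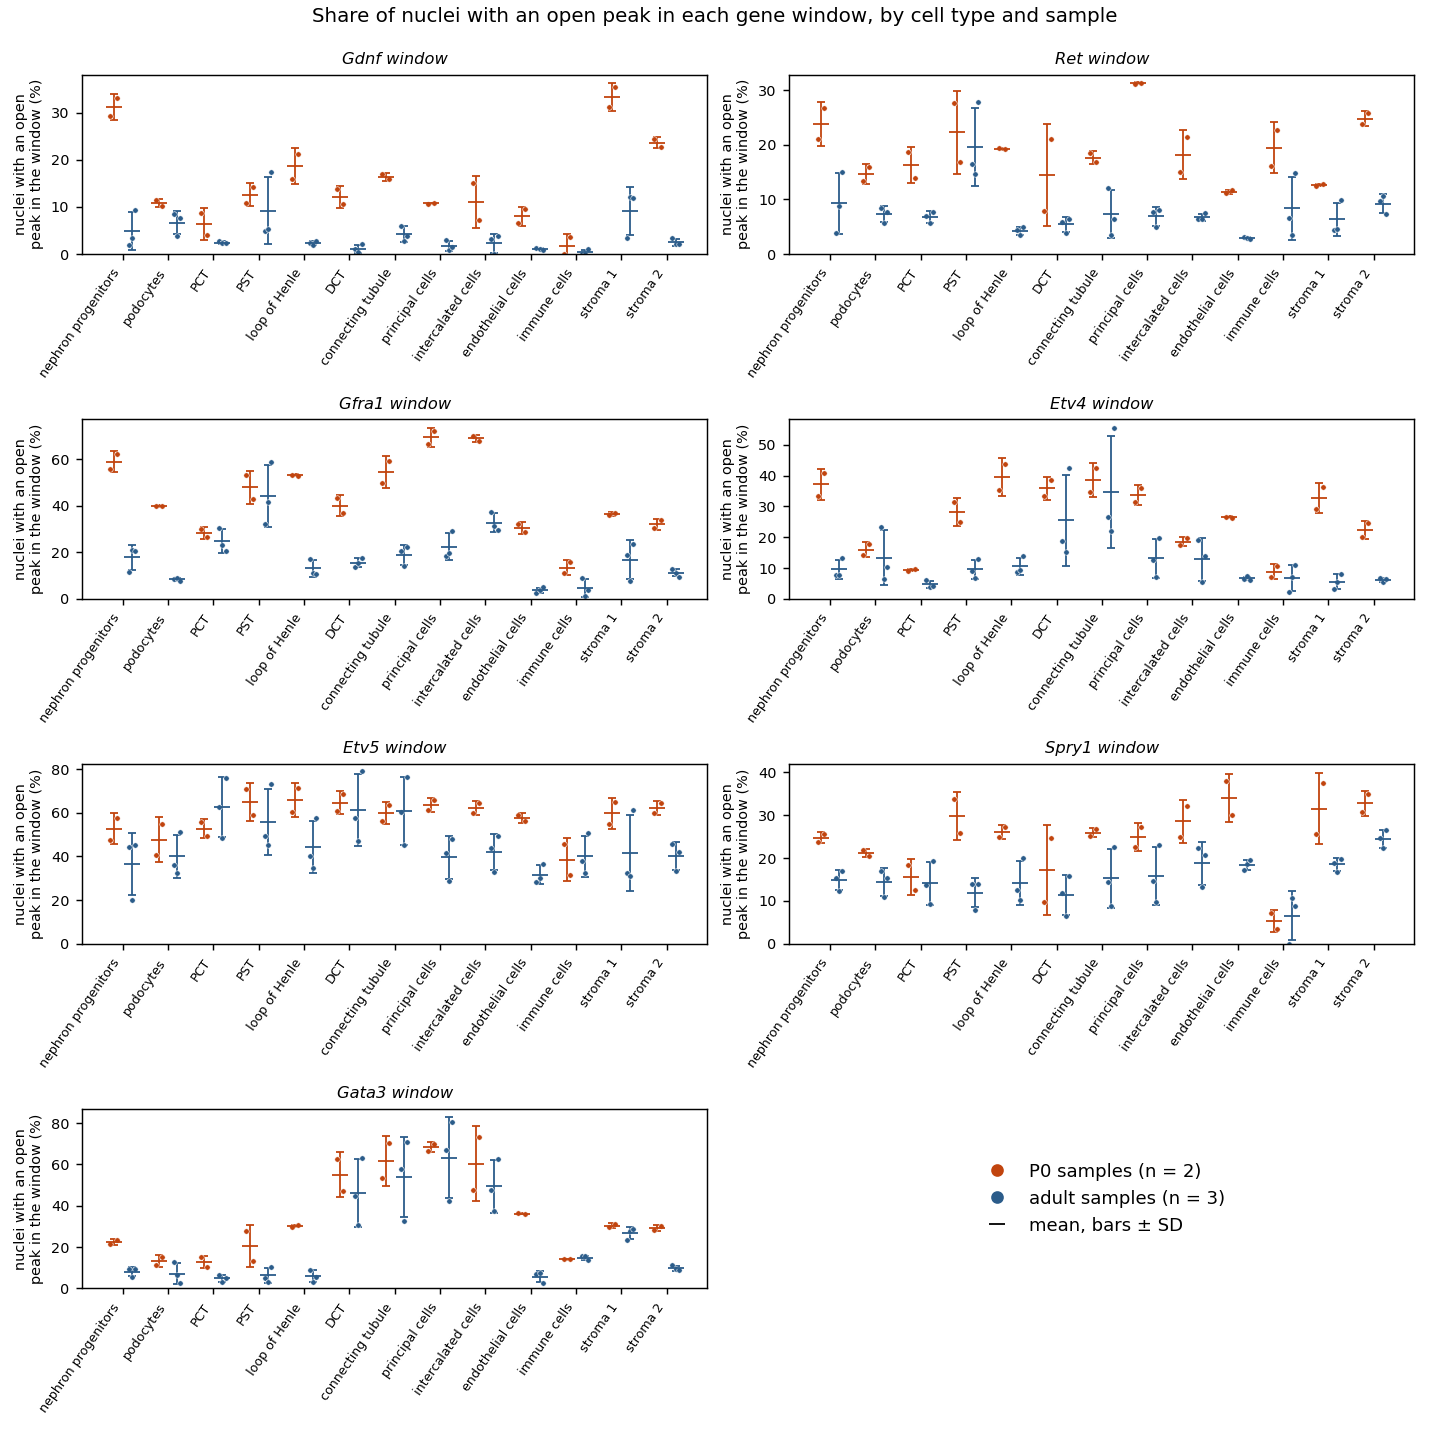
Percent of nuclei with at least 1 open peak in the window of each of the 7 genes (y axis), by cell type (x axis). Points are samples, bars the mean and SD of the 2 P0 (orange) and 3 adult (blue) samples. Gdnf reached 33.4% in stroma 1 and 31.2% in NP at P0, while Gata3 in PC was at 68.4% at P0 and 63.3% in adult samples, and Etv5 was open in at least 31.6% on average in each cell type and stage.

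**Figure D2:**
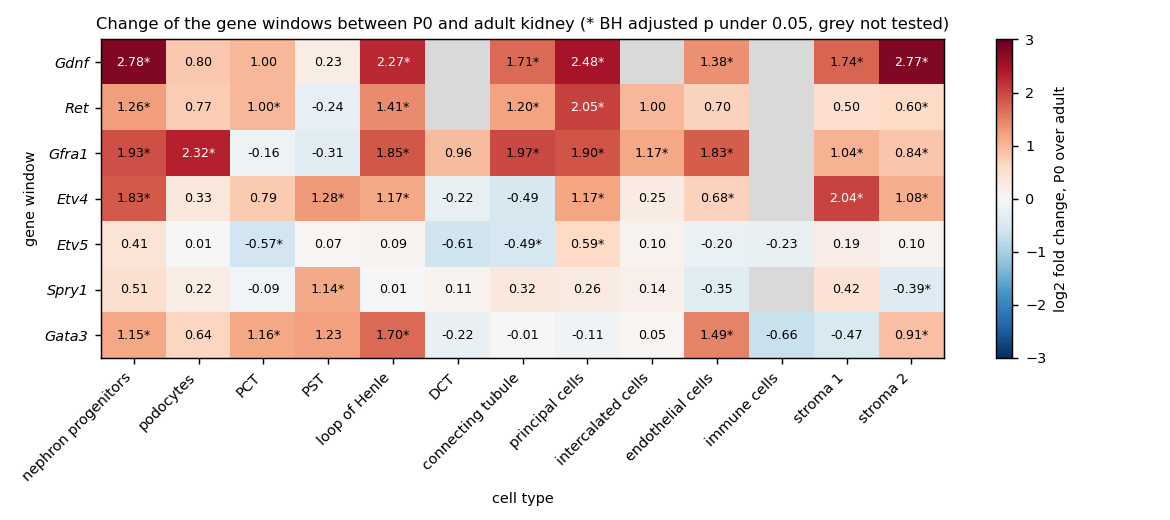
Heat map of the log2 difference of P0 over adult for the 7 gene windows (rows) in 13 cell types (columns), with asterisks at adjusted p below 0.05 and grey where the window was not tested. The largest called differences were Gdnf in NP (2.78) and stroma 2 (2.77), and the 3 called negative values were Etv5 in PCT and CNT and Spry1 in stroma 2.

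Gdnf, the ligand gene (chr15:7810846-7837575, plus strand), was open most often in mesenchymal cell types at P0 and was seldom open in adult kidney. At P0 the order of levels began with stroma 1 (33.4% ± 2.92, SD, n = 2) and NP (31.2% ± 2.74), whose ranges overlapped, followed by stroma 2 (23.7% ± 1.22) and LOH (18.6% ± 3.83). The mean was 1.75% in immune cells, the lowest of the 13. In the adult samples PST (9.22% ± 7.13, n = 3) and stroma 1 (9.12% ± 5.01) came first, and every neighbouring pair in the adult order overlapped. The PST mean rested on P56 replicate 2 (17.5%, against 4.89% and 5.33% in the other two), whose PST nuclei were the deepest. In thinned adult nuclei the means were 3.76% in stroma 1, 2.32% in NP, 1.27% in podocytes and 0.966% in PST.

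In NP the Gdnf window was open in 29.3% and 33.1% of nuclei at P0, and in 1.92% (P21), 3.33% and 9.43% (P56) in adult samples. The stages did not overlap, and the difference was 2.78 (SE 0.35, adjusted p = 9.46e-10). It compares 635 open nuclei of 2037 at P0 with 9 of 195 in adult samples, so the adult side rests on few nuclei. In stroma 2 the shares were 24.5% and 22.8% at P0 and 3.40%, 2.06% and 2.03% in adult samples, in the same order. The difference there was 2.77 (SE 0.25, adjusted p = 7.03e-06), about as large as in NP. In stroma 1 the shares were 31.3% and 35.4% against 3.33%, 12.1% and 11.9%, a difference of 1.74 (SE 0.26, adjusted p = 4.63e-05). Thinned to equal depth, the mean share was 5.96% at P0 and 2.32% in adult NP, 3.91% and 0.594% in stroma 2, and 7.04% and 3.76% in stroma 1.

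The Gdnf window was also higher at P0 in tubule and vessel cells, where shares were lower. In LOH it was open in 15.9% and 21.3% at P0 against 2.28%, 1.92% and 2.76% in adult samples (2.27, SE 0.23, adjusted p = 5.16e-05). In PC it was open in 10.7% and 10.9% against 2.91%, 0.752% and 1.42% (2.48, SE 0.46, adjusted p = 0.000622). Connecting tubule (1.71, adjusted p = 0.00491) and endothelial cells (1.38, adjusted p = 0.0268) passed the test too, but the first was lost without P0 replicate 1 (1.5) and the second without either P0 sample or P56 replicate 2 (1.04 to 1.71). Of the markers checked above, only the progenitor markers Uncx and Cited1 and the stromal marker Col3a1 were read beside these values. In connecting tubule Cited1 was not called (1.19, adjusted p = 0.162), and Uncx and Col3a1 were too sparse for the test. The Uncx window, a progenitor marker, was open in 14.5% to 17.9% of LOH nuclei at P0 and 1.54% to 2.03% in adult samples. Cited1 was open in 16.0% to 16.4% of P0 and 2.54% to 3.55% of adult LOH nuclei, and Col3a1, a stromal collagen gene, in 2.61% to 3.78% and 0.442% to 1.02%. In PC, Uncx was open in 3.05% to 5.43% at P0 and 1.5% to 3.30% in adult samples, too few calls for the test, and Cited1 in 12% to 12.4% and 0.943% to 3.88%. Col3a1 was open in 3.81% to 4.57% of P0 and 0% to 0.943% of adult PC nuclei, and in 3.04% to 3.88% and 0.140% to 0.452% of endothelial nuclei. It was not tested in either cell type, so these are raw shares at unequal depth. Uncx was also higher at P0 in PCT (1.43, adjusted p = 0.0294), and Cited1 in endothelial cells (1.42, adjusted p = 0.0261) and stroma 2 (1.11, adjusted p = 0.0291). The part of such nuclei or free fragments in the Gdnf values, or in those of the other members in these cell types, was not tested. PST did not pass the test (0.23, adjusted p = 0.756), and the difference in change between PST and stroma 2 was -2.72 (SE 0.48, adjusted p = 4.14e-05).

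Peaks were tested like windows: of 1378 pairs of a member peak and a cell type, 190 had enough calls, and 84 of those were higher and 12 lower at P0. Over all peaks 18.0% of tested pairs were higher and 16.0% lower. The median difference was 0.66, beside 0.0071 for all peaks. A peak that was seldom or never open at one stage can enter this count only through the other stage, where it is high. Of the 106 peaks, 49 were tested in no cell type, and 17 of the 96 called pairs rested on at most 3 open adult nuclei. LOH gave 38 of the tested pairs, 30 of them higher and 2 lower, where 29.9% and 24.4% of all LOH peaks were called. Without P0 replicate 1, 47 member pairs were called, and without P0 replicate 2, 43. Of the 67 called differences at the peaks named below, 44 kept their call by DESeq2 and 44 without the filter on low sums. Without that filter every PC call among them was lost, with the direction kept (adjusted p = 0.248 to 0.378), Ret_9, Gfra1_34 and Gfra1_51 included.

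Within Gdnf, 8 of 9 tested pairs were higher at P0. Gdnf_1 over the transcript start (chr15:7809925-7811181) was open in 14.4% and 17.0% of P0 NP nuclei and in 0%, 2.22% and 3.77% of adult ones. That is 320 of 2037 nuclei against 4 of 195, a ratio of 7.66 (95% interval 2.96 to 28.3, counting error only), and the pair was too sparse for the test. In stroma 2 Gdnf_1 passed it (3.30, SE 0.47, adjusted p = 3.92e-06), with a mean share of 10.6% at P0 and 0.443% in adult samples, as it did in LOH (2.33), PCT (1.70) and stroma 1 (1.33). With 6 of 1085 adult nuclei open, the stroma 2 pair passed the filter on low sums through the P0 samples alone. Its call was kept without that filter. The PCT call was lost without either P0 sample or P56 replicate 2 (1.48 to 1.83), and that in stroma 1 without P56 replicate 2 (0.82). Gdnf_3 in the intron next to it (chr15:7812831-7813624) followed the same order, from 11.3% in NP and 9.44% in stroma 1 to 8.58% in stroma 2 at P0. Gdnf_6, farther into the gene (chr15:7817774-7818197), was different. It was open in 8.55% and 8.76% of stroma 1 nuclei and in a mean of 3.14% of stroma 2 nuclei at P0, and in no other cell type above 0.698% on average. No adult stroma 1 nucleus of 298 had it open, against 102 of 1181 at P0, which is at least 8.58-fold higher at P0 in raw shares, counting 3 nuclei over the adult group as the floor. The pair was too sparse for the test between stages, and median open peaks per stroma 1 nucleus were 5010.5 to 6120 at P0 and 1919.5 to 4547 in adult samples. At P0 it was called higher in stroma 1 than in any of the 12 remaining cell types (adjusted p = 0.000689), a call lost by DESeq2 and without either P0 sample. Since the clusters were built from these nuclei, p-values of this kind order the peaks and do not test the cell types.

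**Figure D3:**
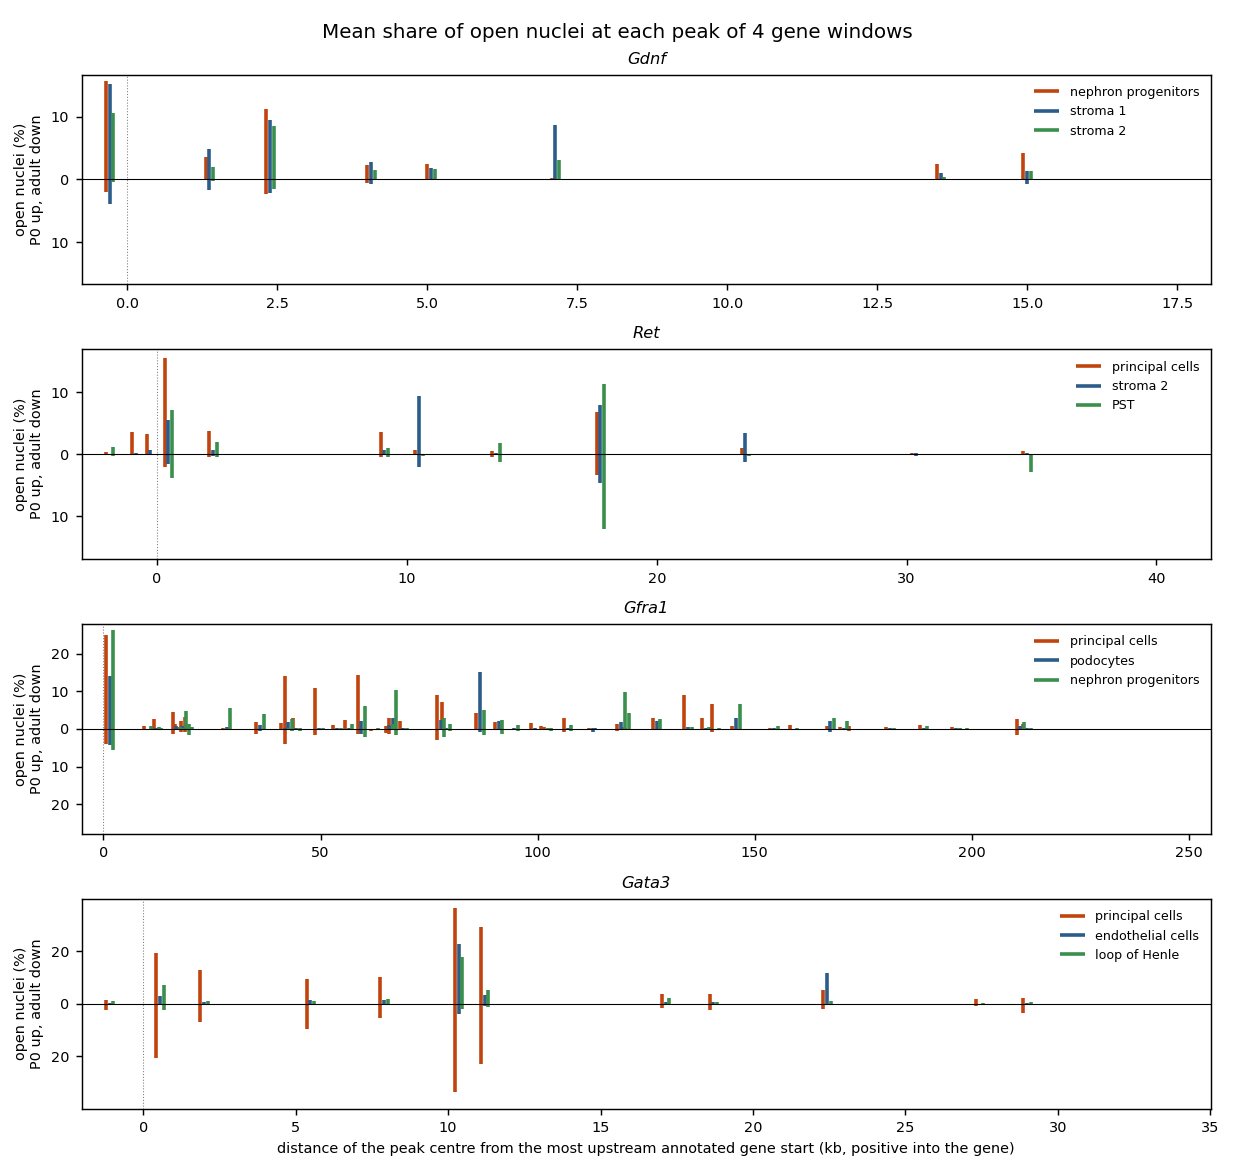
Mean percent of nuclei open at each peak of Gdnf, Ret, Gfra1 and Gata3 (y axis, P0 upward, adult downward) against the distance in kb from the most upstream gene start (x axis), in 3 cell types per gene. Gdnf peak 6 rises in stroma 1, Ret peak 6 in stroma 2, Gfra1 peak 27 in podocytes and Gata3 peak 3 in endothelial cells, each at P0.

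Ret, the receptor tyrosine kinase gene (chr6:118151745-118197718, minus strand), was open most often in principal cells at P0. Its window was open in 31.2% and 31.4% of P0 PC nuclei, and in 7.77% (P21), 4.89% and 8.02% (P56) of adult ones. The P0 samples lay close together and far above the adult ones, with a difference of 2.05 (SE 0.24, adjusted p = 1.23e-05). In thinned nuclei the PC mean was 5.80% at P0 and 1.62% in adult samples. In raw shares PC (31.3% ± 0.149) did not overlap the next type at P0, stroma 2 (24.8% ± 1.43), whereas stroma 2, NP and PST overlapped in sequence. Relative to all open calls, PC did not stand apart from immune cells at P0 (0.12, SE 0.28, unadjusted p = 0.661, edgeR joint fit). Median open peaks per nucleus at P0 were 3025 to 3677 in immune cells and 6554.5 to 7369 in PC. Ret was also higher at P0 in LOH (1.41, adjusted p = 0.000411), NP (1.26, adjusted p = 0.000798), CNT (1.20, adjusted p = 0.0225), PCT (1.00, adjusted p = 0.00527) and stroma 2 (0.60, adjusted p = 0.0213). The CNT, PCT and stroma 2 calls were lost without either P0 sample (0.60 to 1.26), and those in CNT and stroma 2 also without P56 replicate 2 (0.96 and 0.36), the last also without the P21 sample (0.59).

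PST led the adult order for Ret (19.7% ± 7.17), ahead of adult NP (9.28% ± 5.63), and these overlapped. In thinned adult nuclei PST did not lead, with means of 3.35% in PST and 3.38% in immune cells. The PST shares were 27.7% and 17.0% at P0 and 16.5%, 14.6% and 27.9% in adult samples. The stages overlapped, the difference did not pass the test (-0.24, adjusted p = 0.566), and the change in PST differed from that in PC by -2.38 (SE 0.33, adjusted p = 4.24e-07). Median open peaks per PST nucleus ran from 8547.5 to 10199 at P0 and from 5398.5 to 12173 in adult samples.

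At the peaks of Ret, 10 of 17 tested pairs were higher at P0 and none lower. Ret_9 over the transcript start (chr6:118196752-118197769) was open in 16.2% and 14.9% of PC nuclei at P0 and 2.91%, 1.88% and 1.42% in adult samples. The difference was 2.51 (SE 0.41, adjusted p = 9.07e-05), and LOH (1.34), PCT (1.45) and stroma 2 (0.94) passed as well. In PC the pair passed the filter on low sums through the P0 samples alone, and without that filter it was not called (adjusted p = 0.248). PCT was lost without either P0 sample (1.30 and 1.53) and stroma 2 without any 1 of the 5 samples (0.81 to 1.06). Ret_4, over an exon (chr6:118179586-118180370), was tested in 6 cell types and called in none, with PST at a mean of 11.4% at P0 and 12.1% in adult samples. Ret_6, the intronic peak shown above (chr6:118186765-118187701), was open almost solely in stroma 2. It was open there in 9.24% and 9.69% of P0 nuclei and in 1.94%, 3.55% and 0.872% of adult ones, a difference of 1.04 (SE 0.35, adjusted p = 0.017). The next P0 mean, in stroma 1, was 0.944%. Median open peaks per stroma 2 nucleus were 6930 to 7624 at P0 and 3311 to 3465.5 in adult samples. Without P0 replicate 1, P0 replicate 2, the P21 sample or P56 replicate 2 this call was lost, with differences of 0.55 to 1.21.

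Gfra1, the co-receptor gene (chr19:58235604-58455909, minus strand), had the longest window and the most peaks, so its shares are not comparable with those of shorter genes, and Gm16277 shares part of it. It was open in 66.5% and 72.3% of PC nuclei at P0 and in 18.4%, 19.5% and 29.2% in adult samples. The difference in PC was 1.90 (SE 0.15, adjusted p = 3.49e-07). PC (69.4% ± 4.09) and IC (68.9% ± 1.52), both of the collecting duct, overlapped at the head of the P0 order, and NP (59.0% ± 4.37) came next. IC went from 70.0% and 67.9% to 37.2%, 31.2% and 29.8% (1.17, SE 0.21, adjusted p = 0.00942), and this call was lost without either P0 sample (1.07 and 1.24), by DESeq2 (1.16), with at least 50 nuclei per sum (1.07), after thinning (1.32), and when nuclei with at least 1 open peak were counted in place of open calls (0.56, adjusted p = 0.402). On that last measure the difference in PC was 1.12 and was still called.

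Podocytes, the filter cells of the glomerulus, had the largest difference of Gfra1. Their window was open in 39.7% and 40.1% at P0 and in 8.51%, 8.92% and 7.69% in adult samples. The samples of a stage lay close together and the stages far apart, with a difference of 2.32 (SE 0.26, adjusted p = 2.92e-07). Median open peaks per podocyte nucleus were 3387 to 4506.5 at P0 and 2613 to 5017 in adult samples, so depth overlapped between the stages. In thinned nuclei the podocyte mean was 11.7% at P0 and 3.54% in adult samples. The progenitor marker Uncx was open in 8.84% to 9.77% of P0 and 0.637% to 5.13% of adult podocytes (2.09, adjusted p = 0.0189), and Cited1 in 9.77% to 11.6% and 2.56% to 8.51% (0.77, adjusted p = 0.329), and their part in the Gfra1 value was not tested. Gfra1 was the single member called in podocytes, where 5.88% of all windows were higher at P0. In NP the shares were 55.9% and 62.1% against 11.5%, 21.1% and 20.8% (1.93, SE 0.22, adjusted p = 1.86e-11). CNT (1.97), LOH (1.85), endothelial cells (1.83), stroma 1 (1.04) and stroma 2 (0.84) also passed, stroma 1 not without P0 replicate 1 (0.97). The proximal tubule did not. PST stood at 53.0% and 42.9% at P0 and 32.3%, 41.6% and 58.7% in adult samples (-0.31, adjusted p = 0.303), and PCT at 28.4% and 24.8% on average (-0.16, adjusted p = 0.672). The change in PST differed from that in PC by -2.30 (SE 0.25, adjusted p = 1.04e-09), and the change in podocytes from that in PCT by 2.52 (SE 0.36, adjusted p = 7.07e-07).

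Of the tested pairs of Gfra1 peaks, 29 of 49 were higher and 2 lower at P0. Gfra1_51 over the transcript start (chr19:58452812-58456166) was higher in 7 of 10 cell types, from CNT (2.41) and NP (2.16) to stroma 2 (0.77), and not in PST, where its mean was 19.8% at P0 and 17.9% in adult samples. Its calls in podocytes (1.60) and stroma 2 were lost without either P0 sample and some adult samples (1.56 to 1.77 and 0.45 to 0.85). In NP, with 10 of 195 adult nuclei open, Gfra1_51 passed the filter on low sums through the P0 samples alone. Gfra1_34 (chr19:58395884-58397191) was higher in PC (2.66, SE 0.43, adjusted p = 8.35e-05), CNT (2.45) and LOH (1.76), with PC means of 14.3% and 1.45%. With 9 of 581 adult nuclei open, the PC pair passed the filter on low sums through the P0 samples alone. Without that filter it was not called (adjusted p = 0.248). The CNT call was lost without either P0 sample (2.63 and 2.14). Gfra1_27 (chr19:58368577-58369721) was open most often in P0 podocytes. It was open in 14.3% and 16.0% of P0 podocytes and in 2.13%, 0.637% and 0% of adult ones. That is 102 of 669 nuclei against 2 of 243, a ratio of 18.5 (95% interval 5.00 to 155, counting error only), and the pair passed the test (adjusted p = 4.47e-05). In podocytes Gfra1_27 passed the filter on low sums through the P0 samples alone. Its next P0 mean was 5.06% in NP. It was also higher at P0 in the other two cell types where it was tested. In LOH it was open in 33 of 1287 nuclei against 1 of 2341, a ratio of raw shares of 60.03 (95% interval 10.0 to 2442, counting error only). LOH nuclei were deeper at P0, with medians of 6567 to 7430 open peaks against 2496 to 4477 in adult samples. The LOH pair too passed the filter through the P0 samples alone. The PCT call (1.91, means of 0.906% and 0.191%) was lost in 4 of the 6 alternatives that gave a value.

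The remaining Gfra1 peaks are named because of their values. Gfra1_15 (chr19:58321000-58321529) was open in 7.61% and 10.3% of PC nuclei at P0 and in 0% of each adult sample. This is 66 of 744 nuclei against 0 of 581, at least 17.2-fold higher at P0 in raw shares on the same floor. The pair passed the filter on low sums through the P0 samples alone, and without that filter it was not called (adjusted p = 0.26). Connecting tubule was close to PC at P0, with Gfra1_15 open in 5.94% and 6.67% of nuclei and a mean of 0.239% in adult samples, and the peak was not called for PC over connecting tubule (0.72, SE 0.46). In LOH it was open in 28 of 1287 against 0 of 2341 nuclei, at least 17.0-fold higher in raw shares. Median open peaks per LOH nucleus were 6567 to 7430 at P0 and 2496 to 4477 in adult samples. In PC they were 6554.5 to 7369 and 2839.5 to 6027.5. Gfra1_31 (chr19:58388792-58389746) was called for NP at P0, with a mean of 10.4% there and 4.64% in IC. Gfra1_33 (chr19:58393314-58393686) was called for PST in adult samples, at a mean of 8.22% there and 2.30% in PCT.

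**Figure D4:**
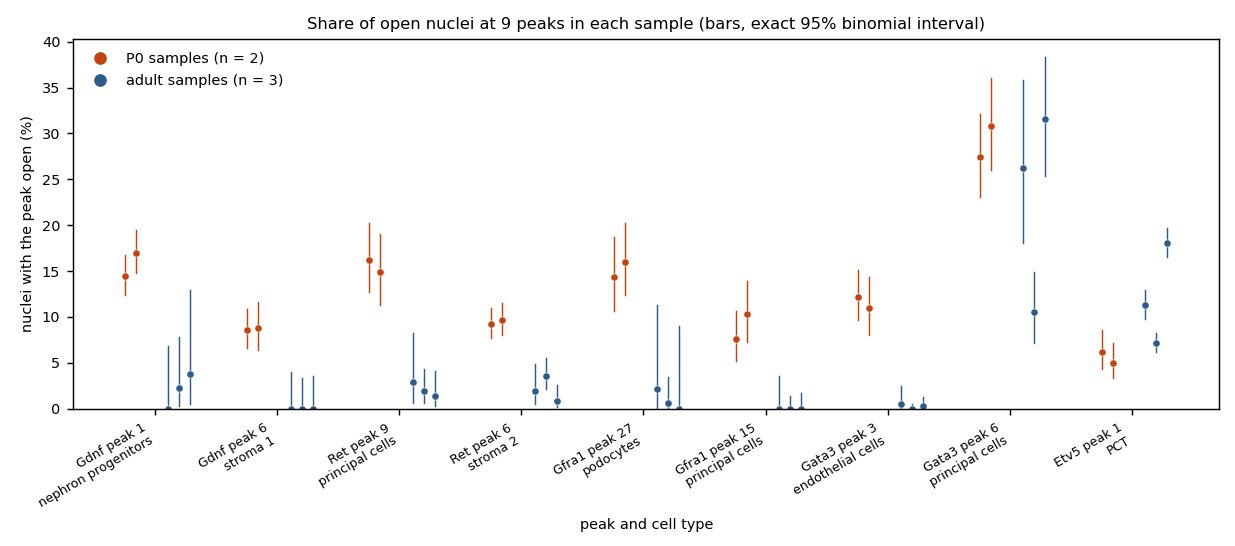
Percent of nuclei open at 9 peaks, each in the cell type named (y axis), for the 2 P0 (orange) and 3 adult (blue) samples, with exact 95% binomial intervals that cover counting error only. Gfra1 peak 15 in PC and Gdnf peak 6 in stroma 1 are at 0% in all adult samples, Gata3 peak 6 in PC overlaps between stages, and Etv5 peak 1 in PCT is higher in adult samples.

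Etv4, a transcription factor gene downstream of Ret (chr11:101769742-101785371, minus strand), was higher at P0 in 7 cell types of the mesenchyme, tubule, duct and vessels, and overlapped between the stages in connecting tubule. In stroma 1 its window was open in 29.3% and 36.3% at P0 and in 3.33%, 5.61% and 7.92% in adult samples (2.04, SE 0.27, adjusted p = 9.77e-06). NP (1.83), PST (1.28), LOH (1.17), PC (1.17), stroma 2 (1.08) and endothelial cells (0.68) passed as well, PST and endothelial cells not without either P0 sample (0.64 to 1.30). The calls in PC and stroma 2 were each lost in 1 of 14 alternatives. In CNT the shares were 34.8% and 42.6% at P0 and 26.5%, 22.1% and 55.6% in adult samples. The stages overlapped there and the difference did not pass (-0.49, adjusted p = 0.0946), and it stood apart from that in stroma 1 by -2.60 (SE 0.39, adjusted p = 2.24e-06). The P0 order had LOH (39.6% ± 6.07), CNT (38.7% ± 5.49) and NP (37.2% ± 5.14) at its head with overlapping ranges.

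Both starts of Etv4 were more open at P0 in several cell types. Etv4_3 over the most upstream start (chr11:101784468-101785762) was higher in 5 of 11 cell types, with 2.56 in both NP and stroma 1. Etv4_1 over a start inside the gene (chr11:101772122-101773091) was higher in 6 of 9, from 0.73 in LOH to 1.95 in stroma 2, and each of these calls was lost without at least 1 sample except in NP, where the peak could not be tested without a P0 sample. Etv4_4 upstream of the gene (chr11:101786618-101787186) was lower at P0 in CNT (-1.45, SE 0.45, adjusted p = 0.0209), with means of 5.68% and 12.7%, a call lost without P0 replicate 2 (-1.10) or P56 replicate 2 (-1.02).

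Etv5, the paralogous ETS factor gene (chr16:22381309-22439719, minus strand), was open in many nuclei of every cell type at both stages. Its P0 means ran from 38.5% in immune cells to 66.0% in LOH, and its adult means from 31.6% in endothelial cells to 62.4% in PCT, with nearly all neighbours overlapping. The window rose in PC at P0, at 61.4% and 66.0% against 41.7%, 28.6% and 48.1% (0.59, SE 0.13, adjusted p = 0.00304). In PCT it was lower at P0, at 55.9% and 49.5% against 62.7%, 48.5% and 76.0% (-0.57, SE 0.10, adjusted p = 0.00419). The raw PCT shares overlapped between stages, and the adult PCT samples ranged from 4206 to 7466 median open peaks. CNT was lower at P0 as well (-0.49, SE 0.16, adjusted p = 0.0264). The PC call was also lost when nuclei with at least 1 open peak were counted (0.26, adjusted p = 0.169), and the PCT and CNT calls after thinning (-0.42 and -0.24). All 3 calls were lost without either P0 sample, with differences of 0.58 to 0.60 in PC, -0.60 to -0.54 in PCT and -0.62 to -0.41 in CNT, the last also without the P21 sample or P56 replicate 2. The change in PCT differed from that in PC by -1.18 (SE 0.14, adjusted p = 1.68e-08).

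Individual Etv5 peaks moved in both directions, 11 higher and 6 lower at P0 of 41 tested pairs. Etv5_16 over the transcript start (chr16:22439468-22440370) was tested in all 13 cell types, higher at P0 in NP (0.48) and lower in LOH (-0.70), endothelial cells (-0.60) and stroma 2 (-0.50). Etv5_15, next to it in the intron (chr16:22438525-22438829), was higher in LOH (1.64), PC (2.02), endothelial cells (1.54) and stroma 2 (1.47), so the normalised differences of these adjacent peaks had opposite signs in 3 of those cell types. The raw shares of Etv5_16 were higher at P0 in all 3, at means of 46.9% and 35.7% in LOH, 48.1% and 27.8% in endothelial cells and 47.8% and 36.5% in stroma 2. In thinned nuclei they were lower at P0, at 6.87% and 10.3%, 8.69% and 12.6%, and 6.43% and 10.6%. Etv5_13 (chr16:22428829-22429984) was higher at P0 in PC (1.09, adjusted p = 0.000894) and lower in PCT (-0.93, adjusted p = 0.0037). Etv5_4 (chr16:22395100-22395634) was higher in LOH (1.18). Apart from Etv5_15 in LOH, each of these calls was lost without at least 1 sample, with the direction kept. Etv5_1 (chr16:22380865-22381541), over the exon at the far end of the gene and named because it was called for PCT in adult samples, was open in 6.22% and 5.03% of PCT nuclei at P0 and in 11.3%, 7.12% and 18.1% in adult samples (-1.45, SE 0.28, adjusted p = 0.00168), a call lost after thinning (adjusted p = 0.107).

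Spry1, the feedback antagonist gene (chr3:37639947-37644598, plus strand), was the shortest of the 7 and had 1 call in each direction at window level. At P0 endothelial cells (34.1% ± 5.59), stroma 2 (32.7% ± 2.98) and stroma 1 (31.6% ± 8.36) overlapped at the head of the order, and stroma 2 (24.5% ± 2.12) came first in adult samples. In stroma 2 the window was open in 30.6% and 34.8% at P0 and in 24.8%, 22.2% and 26.5% in adult samples. Relative to all open calls it was lower at P0 (-0.39, SE 0.13, adjusted p = 0.0286). The raw and normalised values point in opposite directions, and in thinned nuclei the mean was 5.49% at P0 and 7.93% in adult samples. PST was higher at P0, at 33.7% and 25.9% against 13.9%, 7.91% and 13.8% (1.14, SE 0.29, adjusted p = 0.0243). Both calls were lost without either P0 sample (-0.39 and -0.37 in stroma 2, 1.07 and 1.16 in PST), that in stroma 2 also without P56 replicate 2 (-0.35). The changes in PST and stroma 2 differed by 1.54 (SE 0.29, adjusted p = 0.000133).

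All 3 Spry1 peaks were tested. Spry1_1 over the start (chr3:37639787-37641316), which the gene Gm42922 also overlaps, was lower at P0 relative to all open calls in endothelial cells (-0.56) and stroma 2 (-0.57), while its raw means were higher at P0 (19.9% and 11.1%, 18.1% and 14.8%). These calls were lost without either P0 sample or P56 replicate 2 (-0.54 to -0.46 and -0.55 to -0.41). Spry1_2 (chr3:37641998-37642621) was higher in stroma 1 (1.61, SE 0.40, adjusted p = 0.000461), with means of 17.0% and 3.66%. Spry1_3 (chr3:37642827-37643262) was open in 3.59% and 4.02% of stroma 2 nuclei at P0 and in 5.34%, 6.73% and 7.27% in adult samples. It was lower at P0 there (-1.74, SE 0.28, adjusted p = 1.97e-05) and higher in LOH (2.20) and PCT (2.34), LOH not without P0 replicate 2 (1.90) and PCT not without either P0 sample (2.15 and 2.50). In adult samples it was called for stroma 2 over every other cell type.

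Gata3 (chr2:9857078-9890034, minus strand) was open most often in the distal nephron and collecting duct at both stages, where its differences did not pass the test, and it was higher at P0 in 5 other cell types. Its window was open in 66.8% and 70.0% of PC nuclei at P0 and in 67.0%, 42.1% and 80.7% in adult samples. The stages overlapped, and the difference was -0.11 (SE 0.15, adjusted p = 0.607). CNT (-0.01), IC (0.05) and DCT (-0.22) did not pass either. PC, CNT, IC and DCT stood in that order at both stages, each overlapping the next, and above every other cell type. In thinned P0 nuclei DCT came first (20.7%), before PC (17.8%), CNT (12.9%) and IC (10.8%), and in thinned adult nuclei the order was kept. In endothelial cells the window was open in 36.3% and 36.2% at P0 and in 6.79%, 7.72% and 2.78% in adult samples (1.49, SE 0.24, adjusted p = 0.00109). Median open peaks per endothelial nucleus were 6508.5 to 7195.5 at P0 and 2099 to 2441.5 in adult samples, and the thinned means were 5.15% and 2.07%. LOH (1.70), PCT (1.16), NP (1.15) and stroma 2 (0.91) were also higher at P0, PCT not without either P0 sample (1.05 and 1.26) and NP not without P56 replicate 2 (0.86). In thinned NP nuclei the Gata3 means were level, at 3.45% at P0 and 3.43% in adult samples. The change in LOH exceeded that in PC by 1.86 (SE 0.26, adjusted p = 2.76e-07), and the change in PC differed from that in endothelial cells by -1.59 (SE 0.28, adjusted p = 4.74e-05). The windows of 4930412O13Rik, 9230102O04Rik and Gm13256 share peaks with Gata3.

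Of the Gata3 pairs, 10 of 31 were higher at P0 and none lower. Gata3_6 over a start inside the gene (chr2:9878516-9879152) was open in 27.4% and 30.9% of PC nuclei at P0 and 26.2%, 10.5% and 31.6% in adult samples, a difference of -0.03 that did not pass. Gata3_7 in the intron beside it (chr2:9879322-9880059) was higher in 5 of 10 cell types, among them LOH (2.19), where it held without each sample in turn, and endothelial cells (0.99), where it was lost without P0 replicate 2, the P21 sample or P56 replicate 2 (0.52 to 1.01). Gata3_11, over an exon near the upstream end (chr2:9889072-9889919), was higher in PCT (2.53, SE 0.42, adjusted p = 0.000668). Gata3_3 near the other end (chr2:9867249-9867960), named because of its values, was open in 12.2% and 10.9% of endothelial nuclei at P0 and in 0.452%, 0% and 0.232% of adult ones. This is 117 of 1004 against 2 of 1364 nuclei, a ratio of raw shares of 79.5 (95% interval 21.5 to 664, counting error only). Endothelial nuclei had more open peaks at P0, as given above. Relative to all open calls the difference was 4.76 (SE 0.61), which is 27.2-fold. The pair passed the filter on low sums through the P0 samples alone. The next P0 mean of Gata3_3 was 5.01% in PC.

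The change between stages was compared between all pairs of cell types for each window. Of 546 such differences, 133 passed the test (8.34% over all genes), 33 for Gfra1, 29 for Etv5, 26 for Gata3, 21 for Etv4, 11 for Ret, 8 for Gdnf and 5 for Spry1.

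Called for a single cell type over each of the 12 others were 5 of 46 tested member peaks at P0: Gdnf_6 for stroma 1, Gfra1_27 for podocytes, Gfra1_31 for NP, Gata3_3 for endothelial cells and Ret_6 for stroma 2. Over all peaks 15.6% were called at P0 and 21.6% in adult samples. In adult samples 3 of 46 were called, Etv5_1 for PCT, Gfra1_33 for PST and Spry1_3 for stroma 2. No peak was called at both stages. All 5 peaks at P0 were intronic. By DESeq2 none was called at either stage. None of the 5 was called without either P0 sample, and none of the 3 adult ones without either P56 sample. At window level edgeR called none of the 7 genes for a single cell type at either stage, where 5.02% and 10.7% of all windows were called. The unadjusted p was below 0.05 for Gdnf in stroma 1 at P0 (0.0308) and, in adult samples, for Gata3 in PC (0.0233), Etv4 in CNT (0.0154) and Etv5 in DCT (0.0312).

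The wider pathway was read from lists of textbook members, beside 13.7% of pairs higher and 10.5% lower over all genes. GDNF family ligands and receptors (9 genes, Gdnf, Ret and Gfra1 among them) were higher in 40 and lower in 1 of 81 tested pairs, with a median of 0.96. Of these 40, Gdnf, Ret and Gfra1 gave 7, 6 and 9, which are the calls described above. Genes that regulate Gdnf in the mesenchyme (17 genes) were higher in 70 and lower in 15 of 178, median 0.49. Ureteric tip genes, Ret targets and parallel signals (18 genes) were higher in 37 and lower in 31 of 200, median -0.045, close to that of all genes. In NP, where 20.8% of all windows were higher at P0, 11 of 16 mesenchymal genes were higher and 2 lower, led by Robo2 (2.96), a receptor of SLIT proteins, and the progenitor factor genes Six2 (5.80) and Eya1 (2.21). The adult side there is the few nuclei labelled NP, with the progenitor markers Cited1 open in 3.01% and Uncx in 7.76%. The list of tip genes, Ret targets and parallel signals had 3 higher and 6 lower of 14 in NP. The share of all windows lower at P0 within a single cell type is not given here. The counts of lower genes in NP, PC, LOH and stroma 2 therefore have no matching background. Met (-1.96), the HGF receptor, was lower at P0 there, and Fgf10 (2.93), a growth factor gene, was higher. In PC, where 17.8% of all windows were higher, 8 of 18 genes of that list were higher and 3 lower. The higher ones were led by Wnt11 (1.67), a tip ligand induced by Ret, and Sox8 (1.91) and Sox9 (1.97), transcription factor genes of the tip. In LOH, where 28.3% of all windows were higher, the same number of genes of that list, 8 of 18, were higher and 4 lower. In stroma 2, where 19.7% of all windows were higher, 6 of 17 mesenchymal genes were higher and 2 lower. Among them Itga8 (1.22), the integrin subunit that binds nephronectin, and Slit2 (0.66) were higher, and Bmp4 (-0.50), an inhibitor of branching, was lower. Gfra2, the co-receptor of neurturin, was higher at P0 in NP (2.62), PC (1.39) and stroma 2 (1.11).

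The pattern of each window over the 13 cell types at P0 was compared with those of 17184 other genes by Pearson correlation of normalised levels, a description over 13 points that share 2 libraries. Closest to Gdnf were Hoxc4 (r = 0.955), Ddc (r = 0.953) and Shc2 (r = 0.952), and closest to Gfra1 were Mgat4c (r = 0.926), Ahnak2 and Adora1 (r = 0.912 each), all led by PC. Ret had weaker partners, Mpeg1 (r = 0.829), Htatip2 (r = 0.795) and Ppfia4 (r = 0.794), which led in immune cells rather than PC. Etv4 was closest to Fgf23 (r = 0.910), Sept6 (r = 0.903) and Fkbp1b (r = 0.897), and Etv5 to Rtl1 (r = 0.886), Arhgap6 (r = 0.869) and Sgce (r = 0.853). Spry1 was closest to Hcrtr2 (r = 0.967), Zfp9 (r = 0.962) and Palm2 (r = 0.951). Gata3 was closest to 4930412O13Rik (r = 0.953), whose window overlaps it, Mov10l1 (r = 0.938) and Muc1 (r = 0.932). Among the 7 genes the highest values joined Gdnf with Spry1 (r = 0.774) and Etv4 (r = 0.704), then Gfra1 with Etv4 (r = 0.636) and Gata3 (r = 0.605), and the ligand and receptor genes Gdnf and Ret were at r = -0.124.

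The central 300 bases of the member peaks were searched on both strands for the letters of factor motifs. The GATA motif AGATAA was in 11 of 106 (10.4%), beside 14.4% of 300693 peaks, and the AP-2 motif GCCNNNGGC in 8 (7.55%), beside 8.59%. The ETS letters CCGGAAGT, the Six2 letters TCAGGTTTC and the DR5 retinoic acid motif were in none of the 106, and in 0.575%, 0.506% and 0.0246% of all peaks. In these central bases GATA matches fell in Gfra1 (5 peaks), Etv5 (3), Ret (2) and Etv4 (1), and AP-2 matches in Gfra1, Spry1 and Gata3 (2 each), Gdnf and Ret (1 each). The AP-2 letters read the same on both strands, and no match overlapped a searched motif in the stretches shown. The sites in capitals in Gata3_3 and Ret_6 lie farther out and are not in these counts. A match describes letters only.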

How the data were processed

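Per the study's methods, reads were processed with Cell Ranger ATAC 1.1.0 on mm10, nuclei were filtered on fragment number, mitochondrial and promoter ratios, and MACS2 peaks were called per cell type on nuclei pooled over the 5 samples and merged. The authors deposited a binarized nucleus by peak matrix of counts (1 for an open peak, not scaled for depth), the peak positions, and a sample and cluster name for each nucleus; these were used as deposited, except 89197 entries stored as 0. Nuclei were assigned to samples from the sample names, and clusters were the authors'. Open calls were summed per sample and cluster (at least 20 nuclei), over peaks and over gene windows.

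P0 and adult were compared with edgeR 4.0.16 (TMM, quasi-likelihood, filterByExpr with a minimum count of 10 and total of 15, R 4.3.3) in 1 fit per cell type over all features, with Benjamini-Hochberg adjustment at 0.05. A joint fit over the 13 cell types, with sample as a block, gave the calls for a single cell type and the differences between changes, adjusted over all genes and pairs. On simulated data with an assumed spread, the comparison of stages was tried in PC, and the calls for a single cell type were tried for windows at P0. The calls of peaks for a single cell type and the differences between changes were not simulated. Alternatives were DESeq2 1.42.0, RLE scaling, no filter, 50 nuclei per sum, thinning, P56 alone, 5000 bases upstream, and each sample left out. Intervals are exact (Clopper-Pearson, 95%), and floors (3 nuclei) and intervals cover counting error only. Sequences came from GRCm38.

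The 7 genes and the gene lists were chosen with earlier results of these data known. Peaks were named by rule: the most open start-site peak of each gene, the pair of other peaks with the highest share, and the peak with the most calls. Other peaks were named after their values were seen. A gene that the rule for the lists would name, and a searched motif, are not reported here.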

Additional observations from a re-analysis of the deposited data

Results flagged for a closer look

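The Etv5 and Spry1 windows were called in opposite directions in different cell types, and the difference of the changes passed the test. For Etv5 the change from adult to P0 in PCT was lower than that in PC by -1.18 (SE 0.14, adjusted p = 1.68e-08, edgeR), and for Spry1 the change in PST exceeded that in stroma 2 by 1.54 (SE 0.29, adjusted p = 0.000133). Each of these 4 calls was lost without either P0 sample, with the direction kept.

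The windows were also open in nuclei of the pair of clusters that the comparisons leave out, above the share that 3 open nuclei would give (1.91% and 1.04% at P0 and in adult samples in the first, 1.38% in the second), except Gdnf in the second, where 2 nuclei had it open. In the cluster the annotation names PT_out (157 nuclei at P0, 289 in adult samples), Gdnf was open in 9.55% at P0 and 2.08% in adult samples, Ret in 19.7% and 8.997%, and Gfra1 in 45.2% and 23.9%. Among the targets there, Etv4 was open in 23.6% and 13.1%, Etv5 in 67.5% and 61.6%, and Spry1 in 22.3% and 19%. Gata3 was open in 19.1% and 9.34%. In adult nuclei of the cluster named NP_LOH (217 nuclei), Ret was open in 5.07%, Gfra1 in 8.76%, Etv4 in 4.61%, Etv5 in 35.0%, Spry1 in 8.29% and Gata3 in 5.07%. Groups of 2 and 3 samples are too small for the test of a sample far from the others.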

How the results depend on the processing

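None of the 39 called windows and 67 called differences at peaks named in the text reversed where an alternative gave a value (27 and 16 of them after thinning), and 21 and 24 kept their call in every such alternative. The other called peak differences were recomputed as counts. Window calls (39) numbered 17 after nuclei were thinned to 1000 open peaks, where 48 pairs could be tested, and 24 to 44 when a sample was left out, 24 to 39 of them among the 39. Peak calls (96) numbered 156 without the filter on low sums (1229 pairs tested), 8 after thinning (39 pairs tested) and 43 to 121 without a sample. With a single P0 sample left, each cell type's own fit was used, which takes that sample to vary like the adult ones. Peaks called for a single cell type at P0 (5) numbered 0 by DESeq2, 2 with RLE scaling, 2 with at least 50 nuclei per sum, 0 after thinning, 3 without the replicate block and 0 to 5 without a sample. The adult ones (3) numbered 0 by DESeq2, 0 with RLE scaling, 1 with at least 50 nuclei, 0 after thinning, 2 without the block and 0 to 2 without a sample. Thinning leaves fewer calls and leaving out a sample leaves fewer samples, and the cause of the changes in these numbers was not tested. The leading cell type of the 14 pairs of a window and a stage was the same in 9 by normalised sums, in 5 after thinning and in 7 in every sample taken alone, so an order among close cell types is not firm. Mean shares were higher at P0 in 86 of 91 pairs and in 66 after thinning. Raw shares scale with depth, and these counts are not set beside those of all genes. Motif matches rose from 11 to 24 peaks (GATA) and from 8 to 17 (AP-2) over whole peaks. P0 and P56 samples share the replicate numbers 1 and 2 but nothing says that a number pairs them, and their deviations correlated at 0.013 to 0.207 over 13 cell types. With the number as a replicate block, added after the data were seen, P0 against P56 gave 47 window and 108 peak calls, against 39 and 120 without it. Sparse nuclei left 49 of 106 member peaks untested.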
